A study of Mus musculus with 18 samples.

Results

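The interferon regulatory factors (Irfs) and one of their corepressors were followed by RNA-seq in bone marrow-derived macrophages (BMDMs). The 9 genes were Irf1, Irf2, Irf3, Irf4, Irf5, Irf7, Irf8, Irf9 and Irf2bp2, chosen by name, and all 9 were found among the 24485 genes of each library. The 18 libraries formed 6 groups of 3: unstimulated cells, cells given JQ1, cells given IL-10, and cells given LPS, LPS + JQ1 or LPS + IL-10. Every group came from Il10-/- mice on the C57BL/6J background, which lack the anti-inflammatory cytokine interleukin 10, so no wild-type cells entered any comparison. JQ1 (500 nM of (+)-JQ1, an inhibitor that occupies the bromodomains by which BET proteins bind acetylated histones) or IL-10 (10 ng/mL) was given for 12 hours, and LPS (50 ng/mL), a bacterial cell wall component, or saline buffer followed for 4 hours. Cells of the LPS group had vehicle in place of a pretreatment, according to the study's methods, and the unstimulated cells were left untreated. Differences from unstimulated cells, and interactions of LPS with a pretreatment, therefore also hold any effect of vehicle, which cannot be told apart. A group's 3 libraries came from 3 mice. The comparisons address how blocking BET proteins changes the response to LPS, and how this differs from restoring IL-10.

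Irfs are transcription factors that share a DNA-binding domain and bind repeats of the sequence GAAA in the control regions of interferon and interferon-stimulated genes. In macrophages, LPS binding to Tlr4 leads to phosphorylation of Irf3, which switches on interferon beta. Secreted interferon then acts back on the cell through the complex ISGF3, to which Irf9 belongs, and this complex raises Irf7 and many antiviral genes. Irf1 and Irf8 are themselves induced by interferons, Irf5 drives inflammatory cytokines, Irf2 competes with Irf1 for the same sites, and Irf2bp2 binds Irf2 as a corepressor. Activation of Irf3, Irf5 and Irf7 takes place on the protein, which mRNA levels do not show.

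The totals of expected counts ran from 6781952 to 28289498 per library. The 10 macrophage markers found (among them Adgre1, Csf1r and Cd68) summed to between 17859 and 31163 TPM (RSEM's length-scaled level, whose sum is equal in every library), whereas markers of dendritic cells, B cells, T and NK cells, neutrophils and progenitors, and fibroblasts each summed to at most 16.0 TPM in any library. Of those markers Ly6g alone was at 0 in every library. Single macrophage markers moved with JQ1 although their sum did not fall: 8 of the 10 were lower and 1 higher in LPS + JQ1 than in LPS (median -0.72 on the log2 scale, and 5 lower and 2 higher with total-count scaling), and JQ1 alone lowered 6 and raised 3 (median -0.25). Of all genes, 32.9% were lower and 24.4% higher in LPS + JQ1 than in LPS, and JQ1 alone lowered 23.7% and raised 21.9%. Lyz2 had the highest normalised counts of the 10 markers, so their sum need not follow the others. It had 138063, 147793 and 136174 in LPS + JQ1 against 111755, 116918 and 103669 in LPS. With LPS alone the sum was lower, at 17859 to 19424 TPM against 27207 to 29284 TPM in unstimulated cells. Itgam, an integrin chain, fell by 2.27 ± 0.07 in LPS + JQ1 against LPS, Fcgr3, an Fc receptor, by 1.63 ± 0.11, and Adgre1 did not pass the test (-0.07 ± 0.05, adjusted p = 0.245). The part of these shifts in the differences with JQ1 given below was not tested. Il10 itself still gave 3.2 to 6.61 TPM without LPS and 3.62 to 14.6 TPM with LPS. In bulk RNA, fewer cells of a type and less RNA per cell cannot be told apart. Unstimulated replicate 1 stood apart from the other unstimulated libraries. There, 20 targets of ISGF3 (Isg15, the Ifit, Mx and Oas genes and others) summed to 756 TPM against 352 and 392 TPM, all 20 were highest in that library, and 15 of the 20 were more than 2-fold above both others. Results for Irf1, Irf7 and Irf9 against unstimulated cells are therefore also given without it. LPS + IL-10 replicate 1 also differed, with more Irf1 and Irf8 than replicates 2 and 3. Over all genes, replicate 3 of LPS and replicate 3 of LPS + IL-10 lay furthest from the other replicates of their groups.

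Promoter sequence was available for all 9 genes in RefSeq (mouse build GRCm38.p6, not the mm9 build of the expression data), as the 250 bases before each start site. The windows were searched on both strands for GAAANNGAA (spaced GAAA repeats bound by Irfs), GGANTNNCC (NF-kB) and TTCNNNGAA (STAT dimers, a motif that reads the same on both strands). Of 32851 such windows in the genome, 7.1% held the first, 10.8% the second and 7.0% the third. Windows of 4 genes are shown because they held a match, and that of Irf7, the most strongly induced gene, because it held none. Capitals mark the matches. Each motif was searched only as these letters, so binding sites with other letters are not marked.
Irf1 promoter: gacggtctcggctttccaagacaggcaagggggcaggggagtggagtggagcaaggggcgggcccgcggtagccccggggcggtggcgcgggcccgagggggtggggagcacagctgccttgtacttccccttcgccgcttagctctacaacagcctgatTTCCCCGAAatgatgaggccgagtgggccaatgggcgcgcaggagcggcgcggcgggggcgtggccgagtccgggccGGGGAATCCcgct
Irf2 promoter: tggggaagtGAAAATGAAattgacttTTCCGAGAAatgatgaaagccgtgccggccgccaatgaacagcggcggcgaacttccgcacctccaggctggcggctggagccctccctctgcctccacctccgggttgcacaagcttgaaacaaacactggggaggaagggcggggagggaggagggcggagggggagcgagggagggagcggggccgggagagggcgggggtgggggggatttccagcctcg
Irf8 promoter: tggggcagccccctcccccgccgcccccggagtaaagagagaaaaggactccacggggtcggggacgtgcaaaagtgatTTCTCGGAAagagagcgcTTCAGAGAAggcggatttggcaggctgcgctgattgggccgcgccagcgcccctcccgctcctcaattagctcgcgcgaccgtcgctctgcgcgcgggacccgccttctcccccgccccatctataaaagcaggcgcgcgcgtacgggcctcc
Irf2bp2 promoter: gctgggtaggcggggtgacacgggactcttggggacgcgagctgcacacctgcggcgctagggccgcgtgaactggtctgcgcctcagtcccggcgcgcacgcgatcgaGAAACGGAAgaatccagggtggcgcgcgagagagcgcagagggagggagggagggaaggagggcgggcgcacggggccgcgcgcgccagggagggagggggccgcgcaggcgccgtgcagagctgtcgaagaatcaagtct
Irf7 promoter: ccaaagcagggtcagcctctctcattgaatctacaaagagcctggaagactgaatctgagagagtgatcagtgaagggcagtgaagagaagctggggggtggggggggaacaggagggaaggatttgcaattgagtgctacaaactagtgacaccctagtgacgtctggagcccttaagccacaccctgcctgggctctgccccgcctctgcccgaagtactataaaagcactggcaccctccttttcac

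The Irf1 window (chr11:53769764-53770013, + strand) held an NF-kB match at bases -13 to -5 from the start site, on the opposite strand, and a STAT match at -90 to -82. The Irf8 window (chr8:120736108-120736357, + strand) held a pair of STAT matches, at -171 to -163 and at -153 to -145. The Irf2 window (chr8:46739495-46739744, + strand) held an Irf match at -241 to -233 and a STAT match at -224 to -216, and the Irf2bp2 window (chr8:126593987-126594236, - strand) held an Irf match at -141 to -133. No match overlapped another. The Irf7 window (chr7:141266425-141266674, - strand), the windows of Irf3, Irf4, Irf5 and Irf9, and second start sites of Irf1 and Irf8 held no match to these letters.

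In mm9, the build of the expression data, Irf1 lies at chr11:53583516-53591876, Irf2 at chr8:47825099-47932812, Irf3 at chr7:52253018-52258218, Irf4 at chr13:30841095-30858796 and Irf5 at chr6:29476625-29491869, all on the + strand. Irf7 lies at chr7:148448605-148452380 on the - strand, Irf8 at chr8:123260258-123280594 and Irf9 at chr14:56222408-56228867 on the + strand, and Irf2bp2 at chr8:129112196-129117336 on the - strand. Irf3 overlaps the gene Bcl2l12 by 1065 bases, Irf5 overlaps Tnpo3 by 1043 bases and Irf7 overlaps Phrf1 by 45 bases, each on the opposite strand, and Irf9 overlaps Rnf31 by 123 bases on the same strand. Other annotated genes, which were not counted in these libraries, also overlap members. On the opposite strand, Gm17334 overlaps Irf1 by 907 bases and the noncoding RNA gene Gm16983 overlaps Irf2bp2 by 2693 bases. On the same strand, Gm20388 overlaps Irf8 by 20337 bases, its whole length. The counting did not use strand, so reads in all these stretches are uncertain.

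LPS alone raised 6 of the 9 genes (Irf1, Irf2, Irf5, Irf7, Irf8 and Irf9), lowered Irf2bp2 and Irf3, and left Irf4 without a call. Among all genes tested, 31.6% were higher and 32.9% lower with LPS (DESeq2 Wald test, adjusted p under 0.05), so the count of called members has to be read against calls for most genes. The sizes were large: Irf7 rose 50.3-fold, Irf1 20.8-fold and Irf8 7.41-fold, and Irf2bp2 fell 39.7-fold. The plot of normalised counts by library shows these shifts beside the spread of the replicates.

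**Figure D1:**
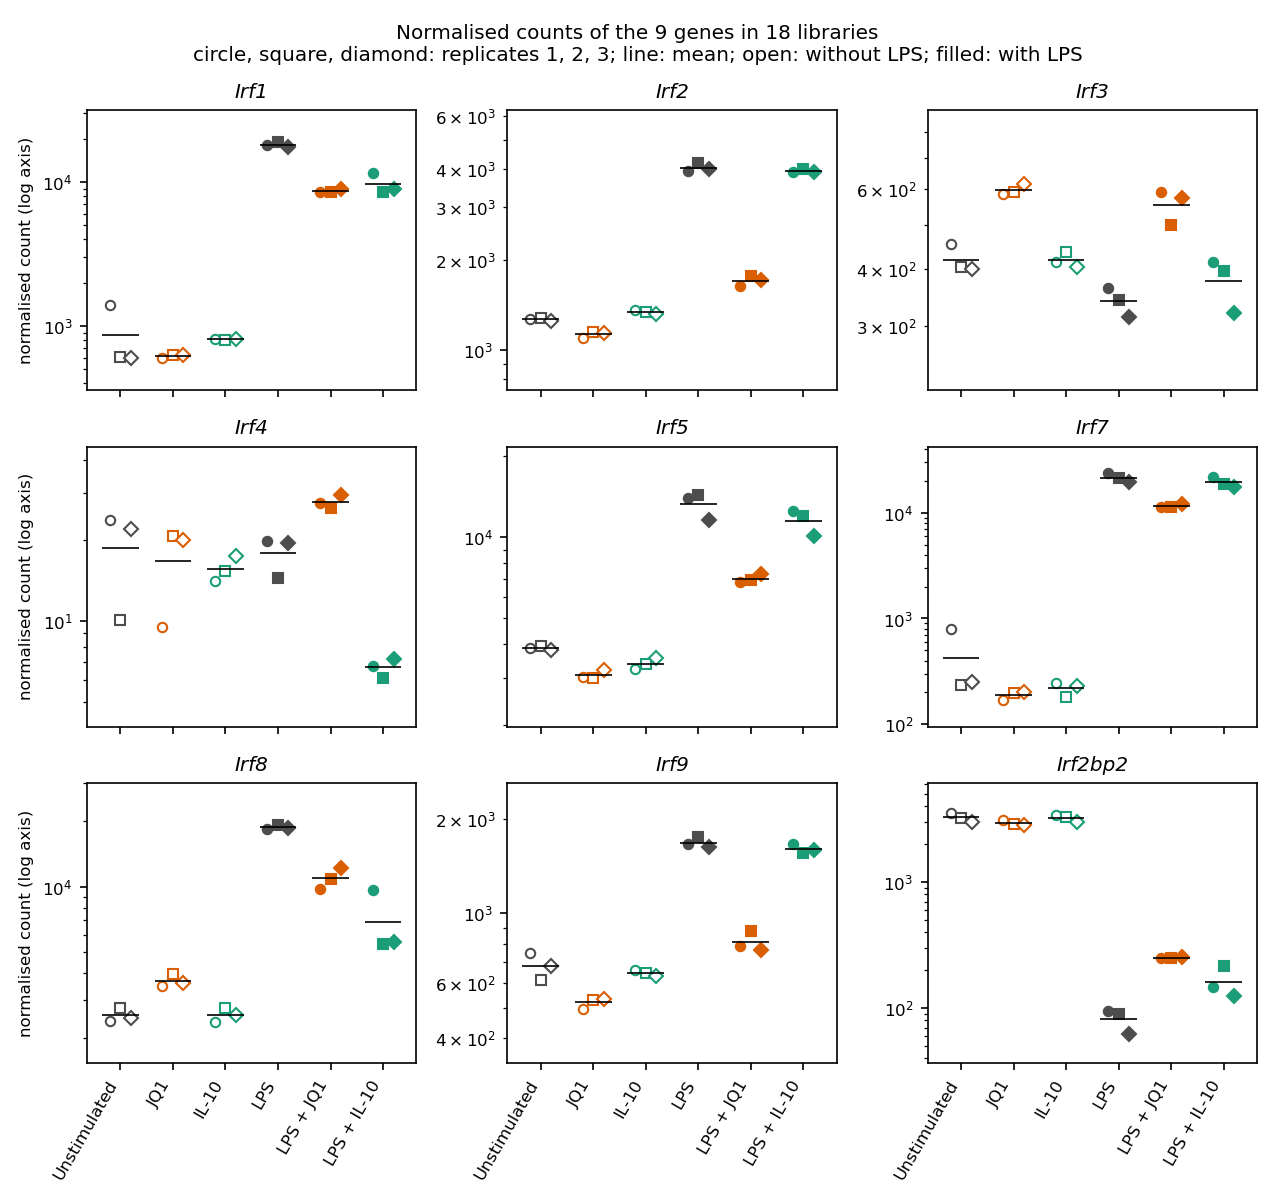
Normalised counts (log axes, each panel with its own range) of the 9 genes in every library, by group. Circles, squares and diamonds are replicates 1, 2 and 3, black lines are means, and open and filled symbols are libraries without and with LPS. Irf7 climbed from 237 to 788 in unstimulated cells to 19394 to 23538 with LPS, while Irf2bp2 dropped from 2970 to 3554 to 62.6 to 94.7.

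Of the interferon amplifiers, Irf7 had normalised counts of 788, 237 and 252 in unstimulated replicates 1, 2 and 3 and of 23538, 21415 and 19394 with LPS. The groups were far apart, and the single high unstimulated value came from replicate 1, the library in which the ISGF3 targets were also highest. The log2 fold change was 5.65 ± 0.37 (SE, n = 3 per group, adjusted p = 3.04e-52), and 6.45 without that library. Irf1, an activator of interferon-stimulated and antigen presentation genes, had 1402, 611 and 599 normalised counts without and 17957, 18925 and 17617 with LPS. Its log2 fold change was 4.38 ± 0.27 (adjusted p = 4.04e-59), and 4.91 without unstimulated replicate 1. Irf9, the DNA-binding subunit of ISGF3, moved less, from 749, 614 and 680 to 1670, 1748 and 1633 normalised counts. That is a log2 fold change of 1.29 ± 0.08 (adjusted p = 2.38e-65), and of 1.37 without unstimulated replicate 1. All 3 LPS libraries lay above all 3 unstimulated libraries for each of these genes.

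Irf8, a lineage factor of macrophages that pairs with PU.1, rose from 2403, 2753 and 2466 normalised counts to 18417, 19337 and 18685. The groups did not overlap, and the log2 fold change was 2.89 ± 0.16 (adjusted p = 8.16e-72). Irf5, which acts downstream of Myd88 to drive inflammatory cytokines, rose from 3859, 3937 and 3793 to 13948, 14348 and 11564. LPS replicate 3 was the lowest of the LPS libraries, yet it was still well above every unstimulated library. Irf5 thus had a log2 fold change of 1.78 ± 0.09 (adjusted p = 4.92e-89). Irf2, the antagonist of Irf1, rose from 1268, 1282 and 1247 to 3938, 4199 and 4009 normalised counts, with little spread in either group. The log2 fold change of Irf2 was 1.68 ± 0.05 (adjusted p = 8.3e-266).

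Irf2bp2 moved in the opposite direction to Irf2, the factor it binds. Its normalised counts were 3554, 3247 and 2970 in unstimulated cells and 94.7, 88.9 and 62.6 with LPS, and its log2 fold change was -5.31 ± 0.15 (adjusted p = 1.07e-262). The LPS libraries still held 67, 86 and 51 expected counts, above the floor of 3 counts. Irf3, the constitutive factor that starts the interferon response, had 454, 404 and 401 normalised counts without and 363, 343 and 314 with LPS. These ranges did not overlap, but the change was small, at -0.31 ± 0.11 (adjusted p = 0.00708). The Irf3 call was lost without unstimulated replicate 1 (-0.24, adjusted p = 0.0616), without LPS replicate 3 (-0.25, adjusted p = 0.0504), without replicate 1 (adjusted p = 0.115) or replicate 3 (adjusted p = 0.0608) of both groups, and when only these groups were fitted (adjusted p = 0.0724). Irf4, a factor of lymphocytes and of alternatively activated macrophages, was close to the detection limit, with 31, 6 and 33 expected counts in unstimulated cells and 14, 14 and 16 with LPS. Its 95% confidence interval ran from -0.91 to 0.59.

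These values depend on the scale in a known way. With libraries scaled to their total counts, the median change over the 12251 expressed genes with LPS was -0.997 rather than -0.067 on the log2 scale, and 20.1% rather than 49.0% of all calls were rises. A change of scale moves every gene by about the same amount, so values relative to that median are kept by construction. Irf1 stood at 4.45 on both scales, Irf2 at 1.75 on both, and Irf3 at -0.24 on both. On the total-count scale Irf9 still rose by 0.37, Irf2 by 0.75 and Irf5 by 0.86, all with adjusted p under 0.05, and Irf4 was called lower (-1.09, adjusted p = 0.00685).

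Levels per length show how the balance among the 9 genes shifted. Their summed TPM was 831, 693 and 708 in unstimulated replicates 1, 2 and 3, and 3024, 3169 and 3158 with LPS. Unstimulated cells were led by Irf5 at 265 ± 4.15 TPM (SD, n = 3), followed by Irf8 at 130 ± 5.45, Irf2bp2 at 103 ± 9.3 and Irf2 at 75.7 ± 1.77 TPM. Irf2, Irf9 (41 ± 5.22) and Irf3 (30.9 ± 2.48) followed each other without overlap, but Irf1 (41.3 to 100 TPM) and Irf7 (19.1 to 67.6 TPM) had wide ranges and could not be placed among them. Irf4 was last at 0.58 ± 0.24 TPM. With LPS the order became Irf7 at 1057 ± 30.0 TPM and Irf1 at 747 ± 48.9 TPM, then Irf8 at 567 ± 45.3 and Irf5 at 529 ± 33.2, whose ranges overlapped. Irf2 (141 ± 11.6 TPM), Irf9 (59.4 ± 4.01), Irf3 (14.6 ± 0.06), Irf2bp2 (1.5 ± 0.22) and Irf4 (0.32 ± 0.07) followed without overlap. Irf7 thus went from 2.76% to 8.14% of the summed TPM in unstimulated libraries to 32.8% to 36.1% with LPS, and Irf5 from 32.2% to 37.7% to 15.8% to 17.8%.

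**Figure D2:**
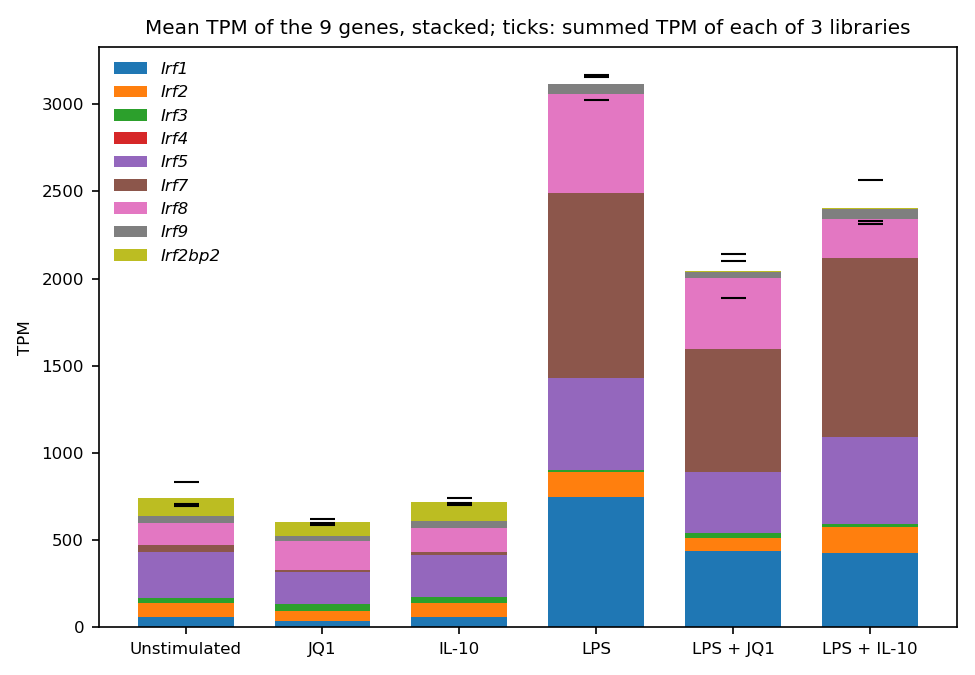
Mean TPM of the 9 genes in each group, stacked from 0, with black ticks for the summed TPM of each of the 3 libraries. The stacks of the 3 LPS groups reach 3117, 2043 and 2403 TPM on average, and Irf7 and Irf1 make up the largest share of the LPS stack, at 33.9% and 23.9%.

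JQ1 without LPS moved 6 of the 9 genes, none by more than 2.26-fold. Irf3 and Irf8 were higher and Irf2, Irf5, Irf7 and Irf9 lower, against 21.9% of all genes higher and 23.7% lower. Irf8 had 3475, 3933 and 3585 normalised counts with JQ1, all above the unstimulated range (0.53 ± 0.16 on the log2 scale, adjusted p = 0.00301). On the TPM scale the Irf8 difference was 0.32 and not called (limma, adjusted p = 0.0604), and without replicate 3 of both groups it was 0.52 (adjusted p = 0.0985). Irf3 had 584, 592 and 616, likewise all above the unstimulated range (0.51 ± 0.10, adjusted p = 2.42e-06). Irf5 fell to 3029, 2984 and 3210 (-0.33 ± 0.09, adjusted p = 0.000816), and lost its call without replicate 2 of both groups (adjusted p = 0.0716). Irf2 fell to 1101, 1152 and 1145 (-0.16 ± 0.05, adjusted p = 0.00622), a change whose call was lost without any one replicate number (adjusted p = 0.106 to 0.29), without JQ1 replicate 1 alone (adjusted p = 0.0541) and when only these groups were fitted (adjusted p = 0.0533).

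The differences of Irf7, Irf9 and Irf1 changed in size without unstimulated replicate 1. Irf7 had 170, 196 and 200 normalised counts with JQ1, below all unstimulated libraries. Its log2 fold change was -1.18 ± 0.37 (adjusted p = 0.0046), but -0.39 (adjusted p = 0.0229) without unstimulated replicate 1 and -0.31 (adjusted p = 0.0894) without replicate 1 of all groups. The Irf7 call was also lost when only these groups were fitted (adjusted p = 0.0841). Irf9 had 496, 529 and 533 (-0.40 ± 0.08, adjusted p = 2.43e-06), -0.33 (adjusted p = 0.000573) without unstimulated replicate 1, and -0.29 (adjusted p = 0.0596) without replicate 1 of all groups. Irf1 had 594, 628 and 627 and was not called (-0.50 ± 0.27, adjusted p = 0.119); without unstimulated replicate 1 its difference was 0.03. Irf1 was called lower without unstimulated replicate 2 (-0.70, adjusted p = 0.00497) or 3 (-0.72, adjusted p = 0.00277), and on log2(TPM + 1) (limma, -0.57, adjusted p = 0.0365). Irf2bp2 stayed near its unstimulated level at 3086, 2899 and 2836, with a 95% confidence interval from -0.37 to 0.08, and Irf4 was not called. With total-count scaling the median of all expressed genes was -0.17 rather than 0.00, 26.8% rather than 48.0% of calls were rises, and Irf1 (-0.68, adjusted p = 0.027) and Irf2bp2 (-0.32, adjusted p = 0.0142) were then called lower as well.

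IL-10 without LPS called none of the 9 genes by DESeq2, against 1.80% of all genes higher and 1.01% lower. At an unadjusted p under 0.05 there were 2 (Irf5 and Irf7), and edgeR and limma also called 0. Normalised counts of Irf1 were 807, 795 and 815, within the wide unstimulated range. Left against unstimulated replicates 2 and 3 only, Irf1 was higher by 0.42 (adjusted p = 0.0105), which reverses the -0.11 ± 0.27 of the full comparison. Irf7 had 247, 182 and 231 (-0.95 ± 0.37, adjusted p = 0.197), and Irf5 had 3221, 3361 and 3542, below all unstimulated libraries (-0.20 ± 0.09, adjusted p = 0.388). Without unstimulated replicate 1 the Irf7 difference was -0.15 (adjusted p = 0.932) and that of Irf9 -0.01. Irf7 was called without unstimulated replicate 2 (-1.24, adjusted p = 0.00677) or 3 (-1.23, adjusted p = 0.012), and Irf5 without replicate 3 of both groups (adjusted p = 0.0287). For the remaining members the 95% confidence intervals bounded the change. Irf2 lay between -0.01 and 0.18, Irf8 between -0.31 and 0.32, Irf9 between -0.24 and 0.07, Irf3 between -0.21 and 0.19 and Irf2bp2 between -0.23 and 0.22. The barely detected Irf4 lay between -1.06 and 0.34.

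During LPS stimulation, JQ1 lowered 6 of the 9 genes, the same 6 that LPS raised, and raised both genes that LPS lowered. Both comparisons use the LPS libraries, so these directions are not independent of each other. The paper reports that JQ1 attenuated most of the LPS-induced genes it identified, so this pattern is not particular to the Irfs. The share of all LPS-raised genes that JQ1 lowered was not taken here. Among all genes tested 24.4% were higher and 32.9% lower. Irf2 fell 2.38-fold, Irf1 2.1-fold, Irf9 2.08-fold, Irf5 1.9-fold, Irf7 1.85-fold and Irf8 1.72-fold relative to LPS alone. Irf2bp2 had 251, 249 and 252 normalised counts, against 94.7, 88.9 and 62.6 with LPS, and Irf3 had 590, 499 and 574 against 363, 343 and 314.

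Irf2 showed the tightest drop, to 1632, 1769 and 1714 normalised counts from 3938, 4199 and 4009 with LPS (log2 fold change -1.25 ± 0.05, adjusted p = 4.23e-151). Irf9 fell to 784, 877 and 762, all below the LPS range (-1.06 ± 0.08, adjusted p = 7.13e-44). The means lay closer to the unstimulated than to the LPS means, at 1705 ± 68.9 against 1266 ± 17.7 for Irf2 and 808 ± 61.2 against 681 ± 67.6 for Irf9 (mean normalised count ± SD). Against unstimulated cells, with 30.1% of all genes higher and 32.3% lower, Irf2 was higher by 0.43 ± 0.05 (adjusted p = 6.32e-17) and Irf9 by 0.24 ± 0.08 (adjusted p = 0.00489). The Irf9 difference was 0.31 (adjusted p = 0.0005) without unstimulated replicate 1. It was lost without LPS + JQ1 replicate 2 (0.17, adjusted p = 0.062) or without replicate 2 of all groups (0.12, adjusted p = 0.335). The direction of both differences turned with the scale: with total-count scaling Irf2 was lower by 0.12 (log2 fold change -0.12, adjusted p = 0.0475) and Irf9 was at -0.32 (adjusted p = 0.00023). On that scale 22.3% rather than 48.2% of all calls against unstimulated cells were rises. Of the 9 members, 7 were higher than in unstimulated cells and 1 lower, and Irf4 was not called (0.48 ± 0.36, adjusted p = 0.242).

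Irf1 fell to 8516, 8460 and 8952 normalised counts, with all libraries below the LPS range (-1.07 ± 0.27, adjusted p = 0.000153). Irf5 fell to 6823, 6911 and 7268 (-0.92 ± 0.09, adjusted p = 9.07e-25). Irf8 fell to 9800, 10901 and 12196, the widest spread of the group, still below every LPS library (-0.78 ± 0.16, adjusted p = 3.24e-06). Irf7 fell to 11398, 11341 and 12056, again without overlap. Its call was the weakest of the 6 (-0.89 ± 0.37, adjusted p = 0.0284). That call was lost with TMM size factors (-0.77, adjusted p = 0.0644), with total-count scaling (-0.51, adjusted p = 0.236), on log2(TPM + 1) with limma (-0.58, adjusted p = 0.0932), and without replicate 2 (adjusted p = 0.0927) or 3 (adjusted p = 0.0665) of both groups, LPS replicate 1 (adjusted p = 0.0941) or 2 (adjusted p = 0.0682), or any one LPS + JQ1 library (adjusted p = 0.0564 to 0.0708). Paired by replicate number, the Irf7 difference was negative in each of the 3 pairs, at -1.05, -0.92 and -0.69. The Irf7 call was kept with edgeR, with the replicate number as a block, when only these groups were fitted and without replicate 1 of all groups. Its SE rests on a spread shared by all 18 libraries, among them the unstimulated ones.

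Irf1, Irf5, Irf7 and Irf8 remained far above unstimulated cells in LPS + JQ1, by 3.31 ± 0.27, 0.86 ± 0.09, 4.76 ± 0.37 and 2.11 ± 0.16 on the log2 scale (adjusted p = 4.3e-34, 2.45e-21, 2.5e-37 and 1.07e-38). Without unstimulated replicate 1 the Irf1 and Irf7 differences were 3.84 and 5.56. As a share of the rise in mean normalised count that LPS gave alone, LPS + JQ1 kept 53.1% for Irf7, 51.8% for Irf8, 44.9% for Irf1, 33.3% for Irf5, 15.8% for Irf2 and 12.7% for Irf9. The sign of the shares of Irf2 and Irf9 turns on the total-count scale, as given above.

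The corepressor and the constitutive factor moved the other way. Irf2bp2 was 3.06-fold higher in LPS + JQ1 than in LPS (1.61 ± 0.16, adjusted p = 2.45e-22), with no overlap, yet its 251 ± 1.92 normalised counts were far below the 3257 ± 292 of unstimulated cells (-3.70 ± 0.13, adjusted p = 1.23e-183). Irf3 was 1.63-fold higher (0.70 ± 0.11, adjusted p = 1.33e-10) and exceeded unstimulated cells by 0.40 ± 0.10 (adjusted p = 0.000213), although with total-count scaling this last difference was -0.16 (adjusted p = 0.144). Irf4 had 27.6, 26.3 and 29.5 normalised counts, above the LPS range of 14.5 to 19.8, and was not called (0.64 ± 0.38, adjusted p = 0.136); edgeR (adjusted p = 0.0342), total-count scaling (adjusted p = 0.0141) and log2(TPM + 1) (adjusted p = 0.0197) called it higher. On the total-count scale the median over expressed genes was 0.28 rather than -0.10 in LPS + JQ1 against LPS, and 64.9% rather than 42.5% of calls were rises. No member changed direction on that scale, with Irf1 at -0.70, Irf2 at -0.87 and Irf2bp2 at 1.99.

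**Figure D3:**
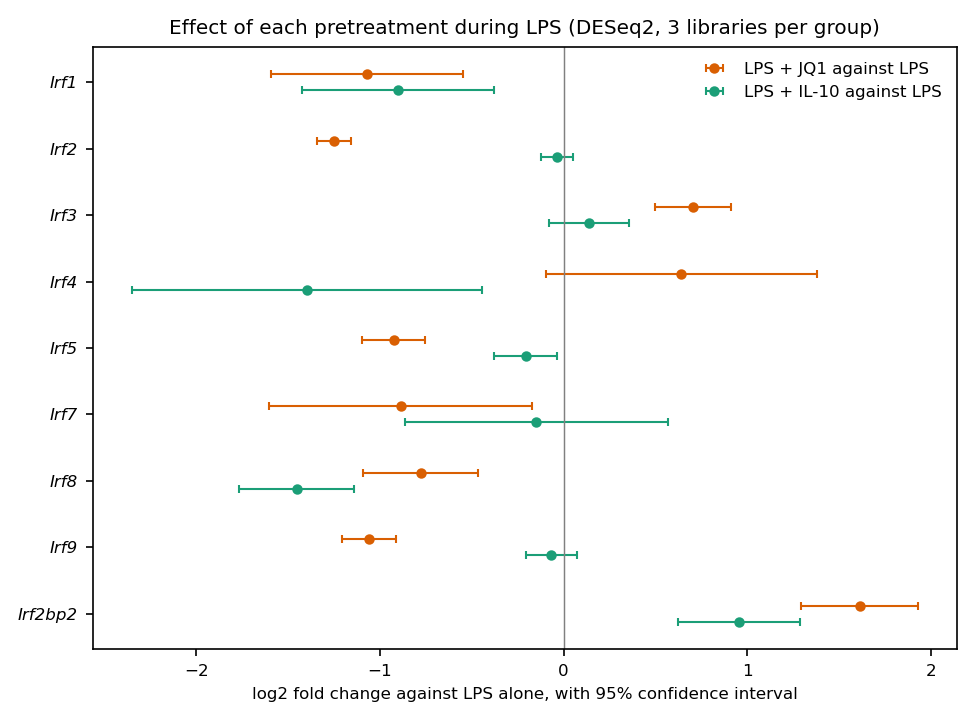
Log2 fold change of each gene against LPS alone, with its 95% confidence interval, for LPS + JQ1 (orange) and LPS + IL-10 (green), 3 libraries per group. The JQ1 points of Irf2 (-1.25) and Irf9 (-1.06) lie far left of their IL-10 points (-0.04 and -0.07), whereas for Irf8 the IL-10 point (-1.45) lies left of the JQ1 point (-0.78).

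IL-10 during LPS stimulation affected fewer members, and chiefly Irf8. Irf1, Irf4 and Irf8 were lower and Irf2bp2 higher than in LPS alone, against 8.38% of all genes higher and 8.81% lower. Irf8 fell to 9619, 5416 and 5572 normalised counts from 18417, 19337 and 18685. All were below the LPS libraries, with replicate 1 well above the other replicates of its group. The log2 fold change of Irf8 was -1.45 ± 0.16 (adjusted p = 9e-18), a 2.74-fold fall, and was -1.77 (adjusted p = 2.58e-76) without that library.

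Irf1 had 11644, 8572 and 8985 normalised counts, again highest in replicate 1 and below the LPS range (-0.90 ± 0.27, adjusted p = 0.00637). The Irf1 call was lost without LPS + IL-10 replicate 2 (-0.82, adjusted p = 0.0574) and without replicate 2 (-0.79, adjusted p = 0.195) or replicate 3 (-0.86, adjusted p = 0.0961) of both groups. Irf2bp2 had 146, 216 and 124 normalised counts, 1.94-fold above LPS and without overlap (0.95 ± 0.17, adjusted p = 4.28e-07). Irf4 was at 6.8, 6.1 and 7.2 normalised counts, which rest on only 5, 4 and 8 expected counts. Its difference of -1.40 ± 0.49 (adjusted p = 0.0276) was lost when only these groups were fitted (adjusted p = 0.186), on log2(TPM + 1) (adjusted p = 0.163), and without any library of either group other than LPS replicate 2 (adjusted p = 0.0713 to 0.0918).

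For the remaining 5 genes the intervals bounded the effect of IL-10. Irf2 had 3910, 4013 and 3923 normalised counts (95% confidence interval -0.13 to 0.05) and Irf9 had 1669, 1563 and 1597 (-0.21 to 0.08), both overlapping the LPS range. Irf7 had 21670, 18662 and 17704 (-0.87 to 0.57) and Irf3 had 414, 397 and 321 (-0.08 to 0.35). Limma called Irf3 higher on log2(TPM + 1) (0.23, adjusted p = 0.0413) and on log2(TPM + 0.1) (0.24, adjusted p = 0.0371). Irf5 had 12571, 11951 and 10066 (-0.38 to -0.03, adjusted p = 0.0938) and was called without LPS replicate 3 (-0.30, adjusted p = 0.0033), without LPS + IL-10 replicate 1 (-0.27, adjusted p = 0.0285) or without replicate 3 of both groups (-0.20, adjusted p = 0.0308). With total-count scaling 71.1% rather than 48.7% of all calls were rises, and the median of all expressed genes was 0.08 rather than -0.02.

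Set directly against each other during LPS, LPS + JQ1 and LPS + IL-10 differed for 7 of the 9 genes, with 23.8% of all genes higher in LPS + JQ1 and 31.6% lower. Irf2 was lower in LPS + JQ1 by 2.31-fold (-1.21 ± 0.05, adjusted p = 1.24e-141), Irf9 by 1.99-fold (-0.99 ± 0.08, adjusted p = 1.73e-38) and Irf5 by 1.65-fold (-0.72 ± 0.09, adjusted p = 2.26e-15). Irf8 was higher in LPS + JQ1 (0.68 ± 0.16, adjusted p = 6.72e-05), although the highest LPS + IL-10 library (9619) nearly met the lowest LPS + JQ1 library (9800). The Irf8 difference was 0.99 without LPS + IL-10 replicate 1, and 0.46 and not called without replicate 3 of both groups (adjusted p = 0.125). Irf2bp2 (0.66 ± 0.15, adjusted p = 2.17e-05), Irf3 (0.57 ± 0.10, adjusted p = 2.58e-07) and the barely detected Irf4 (2.04 ± 0.47, adjusted p = 3.78e-05) were also higher with JQ1. Irf1 did not pass the test, and its interval ran from -0.69 to 0.35. Irf7 lay close to the threshold at -0.74 ± 0.37 (adjusted p = 0.0754). With the replicate number as a block, Irf7 was called lower in LPS + JQ1 (-0.72, adjusted p = 0.047), as it was by edgeR (-0.64, adjusted p = 0.0402). Irf7 was also called lower when only these groups were fitted (-0.66, adjusted p = 8.17e-10) and without replicate 1 (-0.64, adjusted p = 2.04e-08). With total-count scaling 61.2% rather than 42.9% of all calls were higher in LPS + JQ1.

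Ratios between members within a library do not depend on how libraries are scaled, and 3 were taken after the values had been seen. The TPM of Irf1 divided by that of Irf2 was 5.38, 5.31 and 5.18 in the LPS libraries. It was 6.15, 5.63 and 6.15 in LPS + JQ1 but 3.51, 2.51 and 2.7 in LPS + IL-10. Every LPS + JQ1 library was thus above, and every LPS + IL-10 library below, the range of LPS alone. Irf7 divided by Irf3 was 74.2, 71.4 and 70.8 in the LPS libraries, against 22.2, 26.0 and 24.0 in LPS + JQ1 or 60.3, 53.9 and 63.9 in LPS + IL-10. Irf8 divided by Irf2bp2 was 318, 354 and 487 in the LPS libraries, against 63.9, 71.4 and 78.7 in LPS + JQ1 or 107, 40.9 and 73.1 in LPS + IL-10. None of the 3 ratios was tested.

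The effect of LPS under each pretreatment shows the same genes from the side of the stimulus. In JQ1-treated cells LPS raised 6 members and lowered Irf2bp2, against 27.6% of all genes higher and 31.0% lower. In IL-10-treated cells it raised 6 and lowered Irf2bp2 and Irf4, against 33.2% higher and 33.8% lower. The Irf4 call (-1.19 ± 0.47, adjusted p = 0.0171) was lost without any one replicate number (adjusted p = 0.0854 to 0.147), without LPS + IL-10 replicate 3 (adjusted p = 0.0536) and when only these groups were fitted (adjusted p = 0.0574). Irf2 rose with LPS by 1.68 ± 0.05 on the log2 scale in cells without pretreatment, by 0.59 ± 0.05 with JQ1 (adjusted p = 3.85e-30) and by 1.56 ± 0.05 with IL-10 (adjusted p = 6.25e-249). Irf8 rose by 2.89 ± 0.16, 1.58 ± 0.16 (adjusted p = 3.05e-22) and 1.43 ± 0.16 (adjusted p = 1.92e-18) in the same order. Irf2bp2 changed by -5.31 ± 0.15, -3.55 ± 0.13 (adjusted p = 2.18e-169) and -4.35 ± 0.14 (adjusted p = 3.46e-224). Irf7 rose by 5.65 ± 0.37, 5.94 ± 0.37 (adjusted p = 1.04e-56) and 6.46 ± 0.37 (adjusted p = 1.31e-67), the one riser whose LPS effect was not smaller with JQ1 when all libraries were used. Irf1 rose by 3.81 ± 0.27 with JQ1 and 3.60 ± 0.27 with IL-10, Irf5 by 1.19 ± 0.09 and 1.77 ± 0.09, and Irf9 by 0.64 ± 0.08 and 1.31 ± 0.07. Irf3 was not called with JQ1 (-0.11 ± 0.10) or IL-10 (-0.16 ± 0.10), but with total-count scaling it was called lower in both (-0.48, adjusted p = 7.41e-07, and -0.99, adjusted p = 3.01e-23), as it was on log2(TPM + 1) in both and by edgeR with IL-10 (adjusted p = 0.0469). Irf4 was not called with JQ1 (0.74 ± 0.36, adjusted p = 0.0699), and edgeR called it higher (adjusted p = 0.0219). With total-count scaling rises made up 25.6% rather than 47.1% of all calls in JQ1-treated cells and 21.0% rather than 49.6% in IL-10-treated cells.

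**Figure D4:**
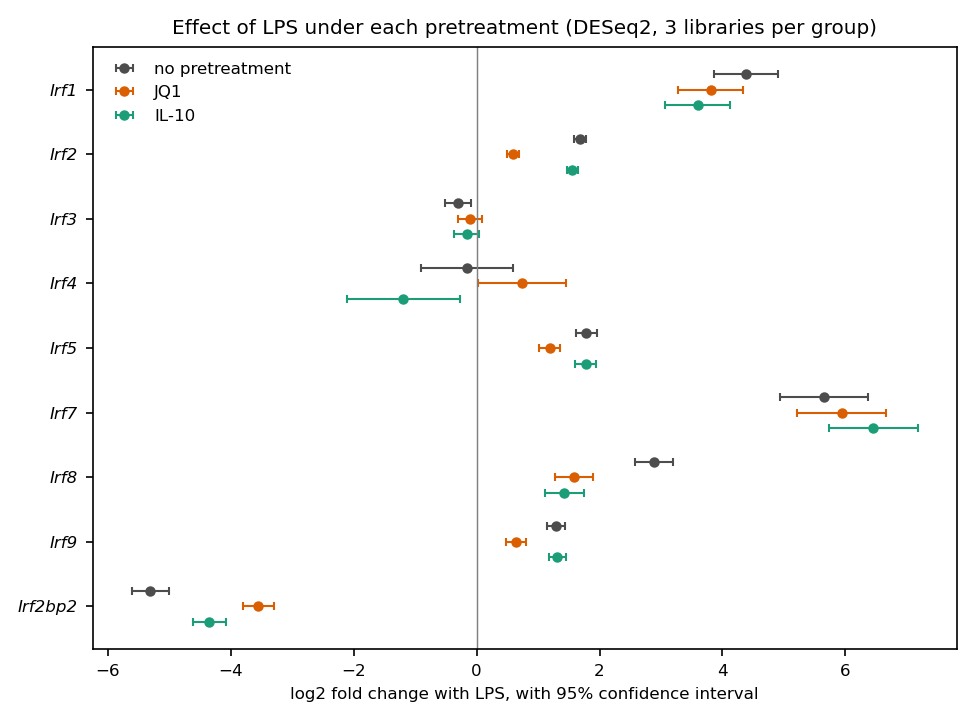
Log2 fold change with LPS, with its 95% confidence interval, in cells without pretreatment (grey), with JQ1 (orange) and with IL-10 (green), 3 libraries per group. The JQ1 intervals of Irf2 (0.49 to 0.69) and Irf9 (0.48 to 0.80) lie left of the untreated ones (1.59 to 1.78 and 1.15 to 1.44), and both pretreatments bring Irf8 below its untreated 2.58 to 3.20.

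Interactions tested whether a pretreatment changed the LPS effect. For JQ1, 5 of the 9 genes were called, Irf2, Irf5, Irf8 and Irf9 with a smaller rise and Irf2bp2 with a smaller fall, against 17.7% of all genes higher and 23.8% lower. The difference of the LPS effect was -1.31 ± 0.23 for Irf8 (adjusted p = 6.38e-08), -1.09 ± 0.07 for Irf2 (adjusted p = 4.16e-52) and 1.76 ± 0.20 for Irf2bp2 (adjusted p = 2.61e-17). It was -0.66 ± 0.11 for Irf9 (adjusted p = 2.2e-08, and -0.72 without unstimulated replicate 1) and -0.60 ± 0.12 for Irf5 (adjusted p = 1.23e-05). On the total-count scale, where 85.4% rather than 42.6% of all interaction calls were positive, those of Irf9 (-0.10, adjusted p = 0.487) and Irf5 (-0.04, adjusted p = 0.784) were lost, and those of Irf3 (0.75, adjusted p = 3.38e-07) and Irf4 (1.46, adjusted p = 0.0144) were called. With the main scaling these were 0.20 ± 0.15 and 0.90 ± 0.53. For IL-10, Irf8 (-1.46 ± 0.23, adjusted p = 1.54e-08) and Irf2bp2 (0.96 ± 0.20, adjusted p = 0.000121) were called, against 4.00% of all genes higher and 3.44% lower, and with total-count scaling 73.6% rather than 53.7% of calls were positive. Irf2bp2 lost this call narrowly without replicate 2 (0.81, adjusted p = 0.0501). Of those not called, the interval of Irf2 ran from -0.25 to 0.01, that of Irf3 from -0.14 to 0.44, that of Irf4 from -2.22 to 0.15, that of Irf5 from -0.26 to 0.24 and that of Irf9 from -0.19 to 0.23.

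The interactions of Irf1 and Irf7 changed without unstimulated replicate 1. With all libraries, the Irf1 interaction was -0.57 ± 0.38 for JQ1 (adjusted p = 0.23) and -0.79 ± 0.38 for IL-10 (adjusted p = 0.25). Without that library they were -1.10 (adjusted p = 2.06e-12) and -1.32 (adjusted p = 1.06e-16), both called. The Irf7 interaction with JQ1 was 0.29 ± 0.52 (adjusted p = 0.695) with all libraries and -0.50 (adjusted p = 0.0164) without that library, a change of direction. The Irf7 interaction with IL-10 was 0.81 ± 0.52 (adjusted p = 0.498), and -0.001 without that library.

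The genes that act upstream of the Irfs, 19 receptors, adaptors and kinases such as Tlr4, Myd88, Tbk1 and Mavs, were higher with LPS in 13 cases and lower in 5, against 31.6% and 32.9% of all genes, with a median log2 fold change of 1.29 against -0.07 over all expressed genes. With total-count scaling 10 were higher and 6 lower, with a median of 0.36. The largest called changes were rises of Tlr3 (4.15 ± 0.21), a receptor for double-stranded RNA, of the adaptor kinase Irak2 (3.53 ± 0.08) and of Tank (3.52 ± 0.14), which binds Traf proteins. With LPS + JQ1, 15 of the 19 were lower than with LPS and 3 higher, against 32.9% and 24.4% of all genes. The median was -0.79 against -0.10, or -0.41 with total-count scaling. Tlr7, an endosomal RNA receptor that signals through Irf5 and Irf7, had 3919, 3761 and 6795 normalised counts with LPS and 151, 212 and 171 with LPS + JQ1, a 27.1-fold fall (-4.76 ± 0.27). All 3 LPS + JQ1 libraries were also below the unstimulated values of Tlr7 of 920, 925 and 1013. Tlr3 fell 8.68-fold (-3.12 ± 0.20) and Tmem173, which encodes the adaptor Sting, 5.71-fold (-2.51 ± 0.15). With LPS + IL-10, 4 were lower and 2 higher, against 8.81% and 8.38% of all genes. They were led by falls of Tmem173 (-0.62 ± 0.12) and Tlr9 (-0.50 ± 0.10) and a rise of Traf3 (0.45 ± 0.12). The median of the list was -0.06, or 0.04 with total-count scaling.

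The interferon receptors, Janus kinases, STATs and Ifnb1, 10 genes in all, were higher with LPS in 9 cases and lower in 1. Of all genes, 31.6% were higher and 32.9% lower. Among those above 100 normalised counts on average, the kinase gene Jak2 (5.30 ± 0.11) and Stat2 (3.72 ± 0.17) had the largest rises. With total-count scaling 6 rather than 9 were called higher and 2 lower. LPS + JQ1 lowered 6 and raised 2 relative to LPS, against 32.9% and 24.4% of all genes (3 and 3 with total-count scaling). Jak2 was at -1.04 ± 0.11, Stat2 at -0.86 ± 0.17 and Ifnar2 at -0.50 ± 0.07. Ifnb1, which encodes the interferon beta that Irf3 and Irf7 switch on, falls outside the naming rule through its low counts and is given because of its role. It was at 0 in all unstimulated libraries, at 113, 151 and 157 normalised counts in the LPS libraries, at 2.2, 5.3 and 6.2 in LPS + JQ1 and at 74.4, 31.9 and 53.2 in LPS + IL-10. Neither of the pretreated groups overlapped LPS (-4.96 ± 0.52, adjusted p = 5.84e-21, and -1.40 ± 0.33, adjusted p = 0.000337). With LPS + IL-10, 4 genes of this list rose and 2 fell, against 8.38% and 8.81% of all genes. The largest rises were in the receptor chains Ifngr2 (0.61 ± 0.09), Ifnar1 (0.55 ± 0.08) and Ifnar2 (0.51 ± 0.07).

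All 20 ISGF3 targets were higher with LPS, against 31.6% of all genes. Their median log2 fold change was 6.82, or 7.89 without unstimulated replicate 1. Rsad2, which encodes the antiviral enzyme viperin, rose most (10.3 ± 0.41), followed by Oasl1 (9.74 ± 0.49) and the mitochondrial kinase gene Cmpk2 (9.23 ± 0.33). JQ1 without LPS lowered all 20, against 23.7% of all genes, with a median of -1.98. It still lowered all 20, with a median of -1.43, once unstimulated replicate 1 was left out. With LPS + JQ1, 15 of the 20 were lower than with LPS and 5 not called, against 32.9% of all genes lower. The median was -1.56, and total-count scaling left 13 lower. Ifi44 (-3.59 ± 0.40), Ifit3 (-3.51 ± 0.43) and Oas2 (-3.42 ± 0.19) fell most. Oas2 had 3955, 3803 and 3461 normalised counts with LPS and 307, 422 and 321 with LPS + JQ1, which brought it close to its unstimulated 452, 276 and 239. Ifit3 and Oas2 have close paralogs that can share reads. With LPS + IL-10 only Ifih1 of the 20 was called (-0.41 ± 0.14, adjusted p = 0.0198), against 8.38% of all genes higher and 8.81% lower. The median was -0.21, and with total-count scaling none was called.

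Irf1 targets (Gbp, immunoproteasome and other genes, 17 found) could be tested for 14. Gbp2, Gbp5 and Cxcl10 were left without a p by the outlier filter of DESeq2, and were tested once unstimulated replicate 1 was left out. All 14 were higher with LPS, against 31.6% of all genes, and all 17 without that library. In LPS + JQ1 all 14 were lower than in LPS, against 32.9% of all genes, with a median of -1.23. They were led by Il27 (-4.67 ± 0.28), a cytokine subunit gene that fell 25.5-fold, then Cxcl9 (-2.25 ± 0.88) and Gbp3 (-2.01 ± 0.27). The replicate block, which tested all 17, had 13 lower and 4 not called, with a median of -0.95. With total-count scaling 9 of 14 were lower. In LPS + IL-10, 3 were lower, against 8.81% of all genes, with a median of -0.23. Il27 (-1.21 ± 0.28) and Il15 (-0.50 ± 0.12) were those above the naming minimum. With the replicate block 5 of 17 were lower in LPS + IL-10.

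The cytokine genes that depend on Irf5 (Il12a, Il12b, Il23a, Il6 and Tnf) were all higher with LPS and all lower in LPS + JQ1 than in LPS. Of all genes, 31.6% were higher with LPS and 32.9% lower in LPS + JQ1 than in LPS. Il12a fell most with JQ1, from 1017, 1024 and 999 normalised counts to 6.6, 7.4 and 3.7 (-7.41 ± 0.69, adjusted p = 1.27e-25). Il6 fell from 13638, 11195 and 17655 to 522, 488 and 428 (-4.88 ± 0.42, adjusted p = 2.74e-30), and Il12b fell 18.9-fold (-4.24 ± 1.00, adjusted p = 6.32e-05). In LPS + IL-10, 4 of the 5 were lower, against 8.81% of all genes. As for Irf8 and Irf1, the values of Il12a were highest in replicate 1, at 379 against 85.1 and 149. Its log2 fold change was -2.31 ± 0.60, that of Il6 -1.79 ± 0.42 and that of Tnf -1.38 ± 0.25.

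Irf4 targets of alternative activation were mostly near 0, and only Mrc1, the mannose receptor, was above the naming minimum. Mrc1 fell in LPS + JQ1 (-0.68 ± 0.18, adjusted p = 0.00036) and rose in LPS + IL-10 (0.53 ± 0.18, adjusted p = 0.022). Of 13 partners and inhibitors, 8 were higher and 4 lower with LPS, against 31.6% and 32.9% of all genes, and with total-count scaling 6 were higher and 6 lower, which turned the median from 0.61 to -0.32. Socs1, an inhibitor of Janus kinases, rose from 41.7, 16.9 and 14.7 normalised counts to 6692, 6330 and 4740 (7.89 ± 0.35), and Batf2 rose 38.1-fold (5.25 ± 0.19). Vgll4, which encodes a transcriptional cofactor, fell from 379, 452 and 357 to 11.3, 4.1 and 4.9 (-5.93 ± 0.38). In LPS + JQ1, 6 were lower and 5 higher, against 32.9% and 24.4% of all genes. Batf2 was at -2.65 ± 0.15, Vgll4 at 2.40 ± 0.41 and Jun at 1.83 ± 0.08. In LPS + IL-10, 4 were higher and 1 lower, against 8.38% and 8.81% of all genes. The changes were led by Irf2bpl (2.02 ± 0.19), a relative of Irf2bp2, then Batf (1.08 ± 0.14) and Bcl6 (1.04 ± 0.10). Irf2bpl had 1274, 1355 and 1140 normalised counts in unstimulated cells and 158, 140 and 92.1 after LPS. Every library of LPS + JQ1 (293, 273 and 246) and of LPS + IL-10 (490, 711 and 388) lay above the LPS range.

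Without LPS, where JQ1 raised 21.9% and lowered 23.7% of all genes, it lowered 12 of the 19 upstream genes and raised 2. Of the 10 interferon receptor and signalling genes it lowered 4 and raised 1, and without unstimulated replicate 1 it lowered 3 and raised 2. Of the 13 partners and inhibitors it lowered 6 and raised 3, and without that library it lowered 5 and raised 2. Of 14 tested Irf1 targets JQ1 lowered 10 and raised 1, and without unstimulated replicate 1 it lowered 8 of 17 and raised 1. Of the 5 Irf5 targets it lowered 1, and without that library 0, and of 4 tested Irf4 targets it lowered 3, and without that library 2. IL-10 without LPS, which raised 1.80% and lowered 1.01% of all genes, lowered 6 of the 20 ISGF3 targets, with a median of -0.82, but without unstimulated replicate 1 it lowered 1 and raised 1, with a median of -0.12. Of the Irf1 targets IL-10 raised 1 and lowered 2, with a median of -0.23, but without that library it raised 3 and lowered 0, with a median of 0.18. Of the upstream genes it raised 2 and lowered 1, and without that library it raised 3 and lowered 0.

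**Figure D5:**
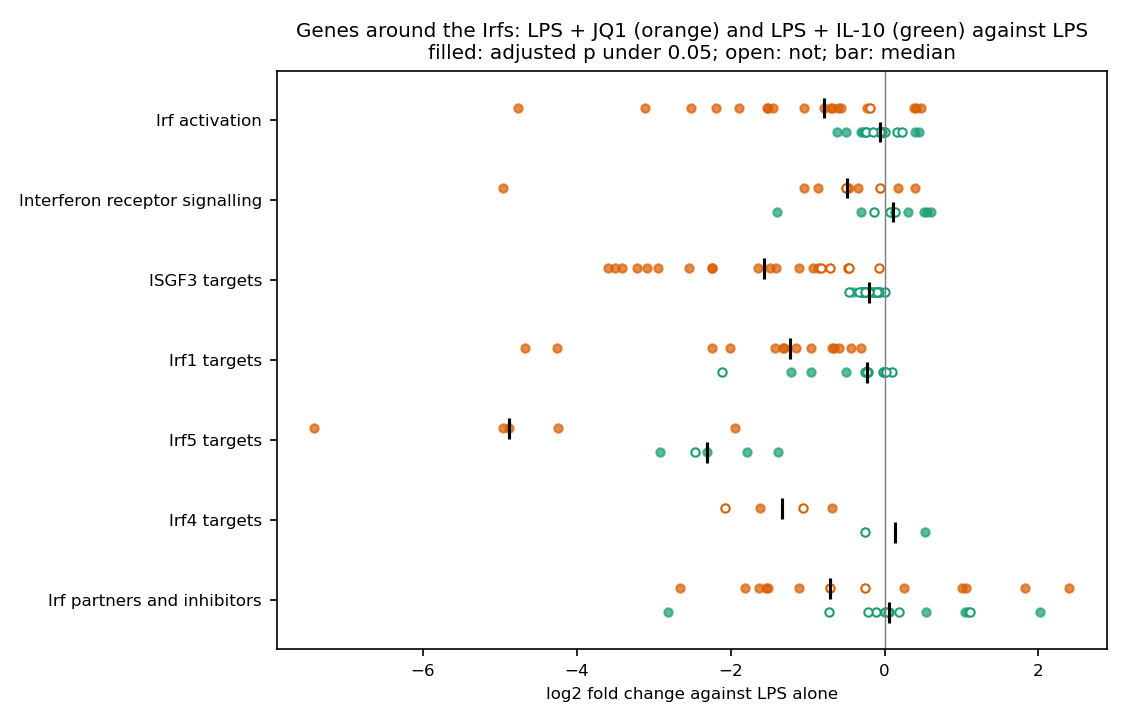
Log2 fold change against LPS alone of the genes of each list, for LPS + JQ1 (orange) and LPS + IL-10 (green). Each point is a gene with an adjusted p, filled where it is under 0.05, and bars are list medians. The ISGF3 targets centre at -1.56 with JQ1 and at -0.21 with IL-10, and the Irf5 targets at -4.88 and -2.31.

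The genes whose group means followed each member most closely were found among 8378 genes with at least 100 normalised counts, by the root mean square difference of the 5 log2 differences from unstimulated cells. They were Papd4 (0.06) and Actb (0.07) for Irf2, Mfap1b (0.03) and Glmp (0.05) for Irf3, Adam17 (0.08) and Ranbp1 (0.09) for Irf5, and Pop4 (0.08) and Hn1l (0.08) for Irf9. The strongly regulated members had more distant neighbours. Nfkbie (0.26) and Parp9 (0.28) were closest to Irf1, Gtf2b (0.24) and Fam133b (0.32) to Irf8, Kcnk13 (0.24) and Fam78a (0.30) to Irf2bp2, and Ccrl2 (0.45) and Serpinb2 (0.50) to Irf7. Wrnip1 and Atp6v0a1 (0.27 each) were closest to Irf4, whose own values rest on few counts. Among the members themselves the nearest pairs were Irf2 and Irf5 (0.25), Irf2 and Irf9 (0.29), and Irf5 and Irf9 (0.38). Mfap1b has a near-identical copy, with which it can share reads. These differences were taken from the mean of all unstimulated libraries, with replicate 1 among them. Those of Irf1 and Irf7 change without that library, as given above, and the closest genes were not sought again without it.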

How the data were processed

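RNA-seq was analysed in 18 libraries of Il10-/- BMDMs, 6 groups of 3 defined by their titles. The authors made stranded, ribosomal RNA-depleted libraries, extracted reads with TagDust, used STAR for alignment to mm9, and ran RSEM 1.2.31 with its default settings, which do not use strand. The deposited expected counts are RSEM's estimated counts per gene, which divide ambiguous reads among genes. They were rounded to whole numbers for the count tests. The deposited TPM are the authors' length-scaled levels, and the deposited effective lengths served in one alternative as an offset.

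The Wald test of DESeq2 1.42.0 (R 4.3.3) was run on all 24485 genes and 18 libraries with a model of group alone, size factors from median ratios and Benjamini-Hochberg adjustment over all genes, with calls at an adjusted p under 0.05. Normalised counts are counts divided by size factors. Alternatives used edgeR 4.0.16, limma 3.58.1 on log2(TPM + 1) and log2(TPM + 0.1), other scalings, filters, the lane, and libraries left out. The DESeq2 step was tested on simulated data. The labels describe matched cultures from 3 mice, and equal replicate numbers were taken to mark the same mouse, an assumption that was not tested. Correlations of same-numbered libraries' deviations ran from -0.094 to 0.381. Replicates were compared for duplicate deposits, and their chi-square per degree of freedom was 4.14 to 30.5, so each counted as 1. The highest values were those of LPS replicate 3 (26.1 and 30.5, against 4.85 between its mates). Those of LPS + IL-10 replicate 3 were 30.0 and 28.8, against 11.2 between its mates. A count of 3 corresponded to 0.106 to 0.442 CPM, which covers counting error only.

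All 9 members are counted in every comparison, and those that passed the test are named. Of each gene list, the 3 largest called changes are named among genes averaging 100 or more normalised counts, and for each member the 2 most alike genes. One result that this rule selects is not reported here. The members and lists were chosen with earlier results of these data known.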

Additional observations from a re-analysis of the deposited data

Results flagged for a closer look

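Differences between the LPS effects of pretreated and untreated cells, tested as interactions with DESeq2, met the rule for a closer look in 7 cases. With JQ1 the difference in log2 fold change was -1.09 for Irf2, -0.60 for Irf5, -1.31 for Irf8, -0.66 for Irf9 and 1.76 for Irf2bp2. With IL-10 it was -1.46 for Irf8 and 0.96 for Irf2bp2. Each of the risers among them rose less with LPS after the pretreatment, and Irf2bp2 fell less. With total-count scaling the Irf5 and Irf9 differences with JQ1 were not called. On log2(TPM + 1) with limma they were -0.08 (adjusted p = 0.509) and -0.18 (adjusted p = 0.262).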

How the results depend on the processing

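Of the values of single members recomputed under the alternatives, 1974 kept their direction and side of the threshold, 56 lost and 45 gained a call, and 13 reversed. LPS + JQ1 against unstimulated cells reversed with total-count scaling, log2(TPM + 1) and log2(TPM + 0.1) for Irf2 (-0.121, -0.044 and -0.045), Irf3 (-0.157, -0.066 and -0.068) and Irf9 (-0.316, -0.224 and -0.23). Over the fits that left out libraries, Irf1 with IL-10 against unstimulated cells ran from -0.335 to 0.417 (0.414 without replicate 1 of all groups), and the Irf7 interaction with JQ1 from -0.497 to 0.626. The replicate block changed 1 call of a member, that of Irf7 in LPS + JQ1 against LPS + IL-10 (-0.722), and 98 of 99 were kept. The lane as a covariate, the effective-length offset and the count minimum kept all 99.

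Over the fits that left out libraries, members called ran from 3 to 7 for JQ1, 0 to 1 for IL-10, 2 to 4 for LPS + IL-10 against LPS and 1 to 3 for the interaction with IL-10. In the same order, the number among all genes called ran from 4050 to 5842 (6248 with every library), 130 to 374 (358), 874 to 2146 (1968) and 291 to 1023 (804), and it ran from 3471 to 5014 (5279) for the interaction with JQ1. For IL-10 alone, edgeR called 230 genes and limma 192 and 116 with the larger and smaller pseudocount. LPS + IL-10 against LPS called 1089 genes when only those groups were fitted. The causes were not tested. Depth limits Irf4 above all, which had 4 to 36 expected counts per library.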
